A study of Arabidopsis thaliana with 6 samples.

Results

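The 6 genes described here make galactinol and raffinose in Arabidopsis, namely the galactinol synthase genes *GOLS1* (AT2G47180), *GOLS2* (AT1G56600), *GOLS3* (AT1G09350) and *GOLS4* (AT1G60470), and the raffinose synthase genes *RS5* (AT5G40390) and *RS4/STS* (AT4G01970). They were picked by gene identifier, 6 of 27372 genes in the file. All 6 passed the filter on low values used for tests, a mean of at least 0.5 FPKM. *GOLS3* reached this mean only through its Col-0 libraries. The choice of the 6 genes was made with their values in *fer-4* and Col-0 already known, and with *GOLS1* and *GOLS2* known to move in opposite directions. Their differences between the genotypes are therefore given as a description, with no test. RNA came from whole seedlings, with 3 libraries from wild type Col-0 and 3 from *fer-4*, a single mutant line with an insertion in the receptor-like kinase gene *FERONIA* (*FER*). All seedlings were grown on MS-agar for 7 days in long days at moderately elevated light intensity (ML) and were harvested at zeitgeber time 3, so that ML was shared by both groups and was not compared with dim light. The intensity is 154 mmol in the sample labels and the same number of μmol per square metre and second in the paper. The paper made this comparison to examine gene expression mediated by *FER* under ML. It describes *fer-4* seedlings as severely damaged after 7 days of ML, the condition of these libraries. The part of this damage in the differences between the genotypes was not tested.

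Galactinol synthase joins UDP-galactose to *myo*-inositol, which is the first committed step of the raffinose family of sugars. Raffinose synthase then moves the galactose from galactinol to sucrose and releases the inositol, and stachyose synthase adds a further galactose to raffinose. In plants these sugars serve as compatible solutes in drought, cold and heat, as carbon stores in seeds and as proposed scavengers of hydroxyl radicals. In Arabidopsis, *GOLS1* and *GOLS2* are known as genes induced by drought, salt and heat, *GOLS3* as a gene induced by cold, *RS5* as the main raffinose synthase gene of stressed leaves and *RS4/STS* as a gene of seeds.

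The upstream sequences of 3 galactinol synthase genes are shown because these genes differed most between the genotypes, in opposite directions. Each line gives the 300 bases before the annotated start of the gene in the RefSeq annotation of TAIR10.1, from 5′ to 3′ on the strand of the gene. Capitals mark matches to the heat shock element (GAANNTTC or TTCNNGAA), the core of the abscisic acid response element ABRE (ACGTG), the G-box (CACGTG, which holds the ABRE core on both strands) and the drought response element DRE (ACCGAC or GCCGAC), all searched on both strands.
GOLS1 promoter, chr2:19370479-19370778, minus strand: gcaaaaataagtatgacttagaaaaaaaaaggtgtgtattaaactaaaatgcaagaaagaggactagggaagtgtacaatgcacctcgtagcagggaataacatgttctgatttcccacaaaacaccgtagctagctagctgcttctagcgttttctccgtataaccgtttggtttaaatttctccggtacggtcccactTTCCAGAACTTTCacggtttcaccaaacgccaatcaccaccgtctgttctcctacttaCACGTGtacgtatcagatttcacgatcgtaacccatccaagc
GOLS2 promoter, chr1:21207237-21207536, plus strand: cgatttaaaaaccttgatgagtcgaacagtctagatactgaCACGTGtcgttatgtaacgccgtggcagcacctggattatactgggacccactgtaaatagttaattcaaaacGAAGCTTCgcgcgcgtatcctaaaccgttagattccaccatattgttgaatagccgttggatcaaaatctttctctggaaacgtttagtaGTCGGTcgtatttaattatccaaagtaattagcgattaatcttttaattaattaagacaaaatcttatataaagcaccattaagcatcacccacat
GOLS3 promoter, chr1:3019339-3019638, plus strand: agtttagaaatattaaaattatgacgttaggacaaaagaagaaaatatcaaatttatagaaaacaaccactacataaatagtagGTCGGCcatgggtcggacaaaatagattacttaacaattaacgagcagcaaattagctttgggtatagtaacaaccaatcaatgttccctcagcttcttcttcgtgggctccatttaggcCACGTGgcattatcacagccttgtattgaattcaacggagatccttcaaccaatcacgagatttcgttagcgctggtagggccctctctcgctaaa

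Heat shock factors bind heat shock elements, bZIP factors of abscisic acid signaling bind the ABRE, and DREB and CBF factors bind the DRE. In the *GOLS1* window, the forms GAANNTTC and TTCNNGAA overlapped, from -100 to -88 relative to the start, as 1 element of 3 units (TTC, GAA and TTC, with 2 bases between neighbours). That longer form was searched after the overlap had been seen and was present in 0.485% of 27443 windows of coding genes, while GAANNTTC was in 11.5% and TTCNNGAA in 9.38%. *GOLS1* also had a G-box from -42 to -37, which lay from -259 to -254 in *GOLS2* and from -96 to -91 in *GOLS3*. The G-box was in 7.09% of all windows and the ABRE core in 25.6%. *GOLS2* had a GAANNTTC match from -186 to -179 and an ACCGAC from -96 to -91, and *GOLS3* had a GCCGAC from -216 to -211. These forms of the DRE were in 5.45% and 3.01% of all windows. The windows of *GOLS4*, *RS5* and *RS4/STS* had no G-box, and held a TTCNNGAA, an ACCGAC and 2 separate ABRE cores, respectively. A match describes the letters of the window and is not a measured binding site.

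**Figure D1:**
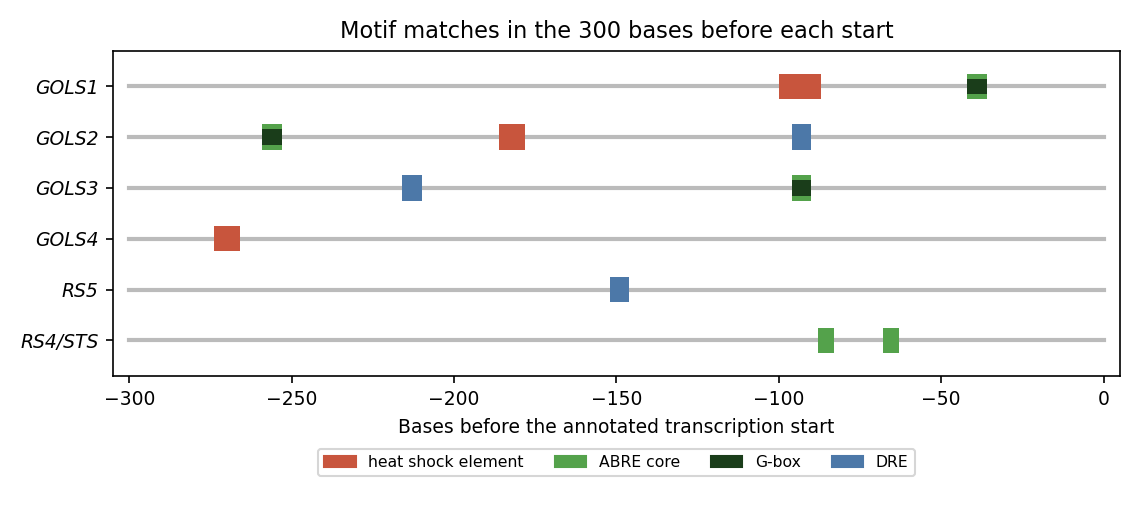
Motif matches in the 300 bases before the annotated start of each of the 6 genes, with the distance from the start in bases on the horizontal axis and 1 line for each gene. Bars show heat shock elements (red), ABRE cores (green), G-boxes (dark green, over the ABRE core) and DREs (blue), and a G-box is present in *GOLS1*, *GOLS2* and *GOLS3* and in none of the other 3 genes.

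*GOLS1* was at 59.3, 55.5 and 55.2 FPKM in Col-0 replicates 1, 2 and 3, and at 166, 168 and 114 FPKM in *fer-4* replicates 1, 2 and 3. FPKM counts fragments over the length of the transcript and the size of the library, so that levels can be set side by side between genes. Every *fer-4* library was above every Col-0 library. The Col-0 mean was 56.7 ± 2.29 FPKM and the *fer-4* mean 149 ± 30.2 FPKM (SD, n = 3), a 2.63-fold higher level in the mutant. On the scale of log2(FPKM + 0.1), used for all log2 differences here, the difference was 1.38 (standard error 0.15). *GOLS1* was the 2801st most abundant of all genes by mean FPKM in Col-0 and the 1182nd in *fer-4*.

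*GOLS2* showed the opposite order. It was at 11.8, 19.1 and 6.03 FPKM in Col-0 replicates 1, 2 and 3, and at 1.42, 1.38 and 0.816 FPKM in the *fer-4* replicates in the same order. The groups did not overlap, although the highest Col-0 library was 3.16 times the lowest. The Col-0 mean was 12.3 ± 6.53 FPKM and the *fer-4* mean 1.20 ± 0.337 FPKM (SD, n = 3), a 10.2-fold higher level in Col-0. The log2 difference of *GOLS2* was -3.14 (standard error 0.39), and 24 of 19839 genes tested had a larger decrease, while 1008 had a larger increase than *GOLS1*. With a pseudocount of 1 the difference of *GOLS2* was -2.48.

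*GOLS3* was low in both genotypes and lower in *fer-4*. Its values were 0.796, 0.949 and 0.575 FPKM in the Col-0 replicates and 0.247, 0.353 and 0.318 FPKM in the *fer-4* replicates. The groups did not overlap, with a Col-0 mean of 0.773 ± 0.188 FPKM and a *fer-4* mean of 0.306 ± 0.0539 FPKM (SD, n = 3), and the level in Col-0 was 2.53-fold higher. The log2 difference of *GOLS3* was -1.09 (standard error 0.29), and it was -0.44 with a pseudocount of 1 and -1.56 after quantile normalization. *GOLS4* was at 3.53, 2.94 and 2.27 FPKM in the Col-0 replicates and at 4.15, 4.11 and 3.17 FPKM in the *fer-4* replicates. Its groups overlapped, and the means of 2.91 ± 0.633 and 3.81 ± 0.556 FPKM (SD, n = 3) differed by 0.39 on the log2 scale (standard error 0.19).

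Among the raffinose synthase genes, *RS5* was lower in *fer-4* by less than *GOLS2*. *RS5*, which the file lists under the symbol *SIP1*, was at 19.8, 22.1 and 17.9 FPKM in the Col-0 replicates and at 13.1, 14.6 and 12.3 FPKM in the *fer-4* replicates. The groups did not overlap, and the means of 19.9 ± 2.1 and 13.3 ± 1.17 FPKM (SD, n = 3) gave a 1.5-fold higher level in Col-0 and a log2 difference of -0.58 (standard error 0.11). *RS4/STS* was at 0.825, 0.470 and 0.589 FPKM in the Col-0 replicates and at 0.434, 0.562 and 0.517 FPKM in the *fer-4* replicates. The groups overlapped, with means of 0.628 ± 0.180 and 0.504 ± 0.0649 FPKM (SD, n = 3) and a log2 difference of -0.24 (standard error 0.28). Thus the groups did not overlap in 4 of the 6 genes, 1 higher and 3 lower in *fer-4*, where 51.1% of all genes tested had groups that did not overlap (26.1% higher and 25.1% lower). Since the genes were chosen with these values known, nothing is read from this count. In RNA of whole seedlings, fewer cells of a type and less RNA per cell cannot be told apart.

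**Figure D2:**
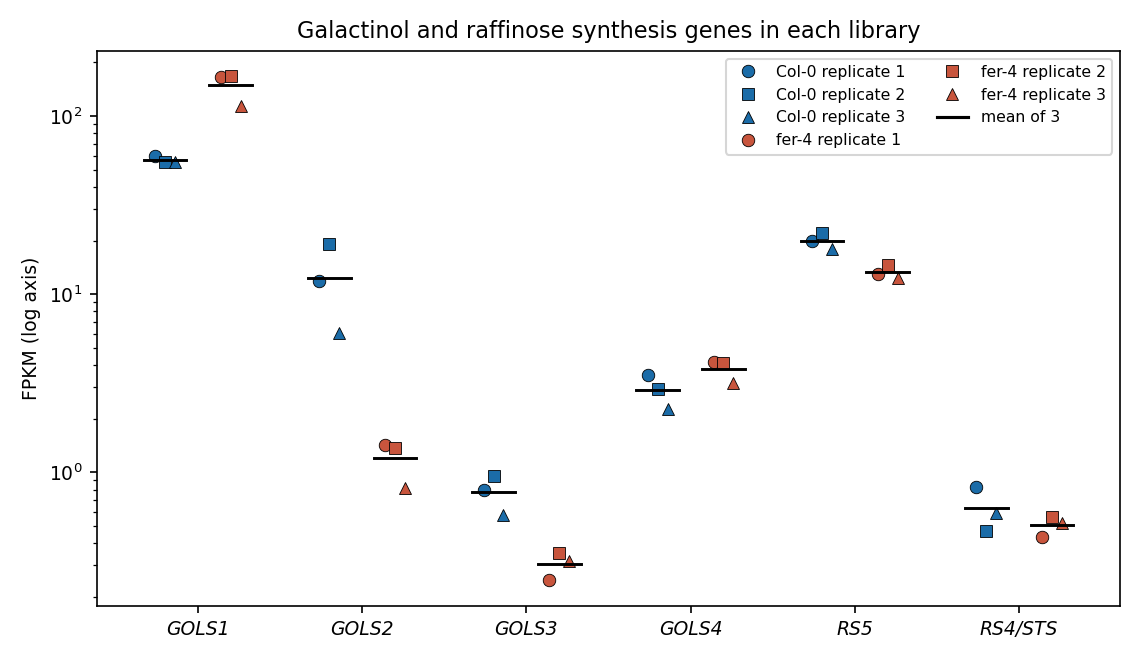
FPKM (log axis) of the 6 genes in each of the 6 libraries, with Col-0 in blue, *fer-4* in red, 1 symbol for each replicate number and a line at the mean of 3. *GOLS1* is higher and *GOLS2*, *GOLS3* and *RS5* are lower in every *fer-4* library than in every Col-0 library, and the groups of *GOLS4* and *RS4/STS* overlap.

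The order of the levels differed between the genotypes. In Col-0 the order of the means was *GOLS1*, *RS5*, *GOLS2*, *GOLS4*, *GOLS3* and *RS4/STS*, in which the libraries of *RS5* and *GOLS2* overlapped, as did those of *GOLS3* and *RS4/STS*. In *fer-4* the order was *GOLS1*, *RS5*, *GOLS4*, *GOLS2*, *RS4/STS* and *GOLS3*, and no neighbours in it overlapped. The summed level of *GOLS1* to *GOLS4* was 75.5, 78.4 and 64.1 FPKM in the Col-0 replicates and 171, 174 and 119 FPKM in the *fer-4* replicates. *GOLS1* made up 70.7% to 86.2% of this sum in Col-0 libraries, and 96.4% to 96.6% in those of *fer-4*. The share of *GOLS2* was 15.7%, 24.3% and 9.41% in the Col-0 replicates, and 0.829%, 0.792% and 0.687% in the *fer-4* replicates. *GOLS4* contributed more than *GOLS2* in every *fer-4* library and less in every Col-0 library. The summed galactinol synthase level was 3.46 to 3.66 times the summed level of *RS5* and *RS4/STS* in Col-0, and 9.29 to 12.7 times in *fer-4*. Depth is unknown, so no counting interval is given for these shares.

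**Figure D3:**
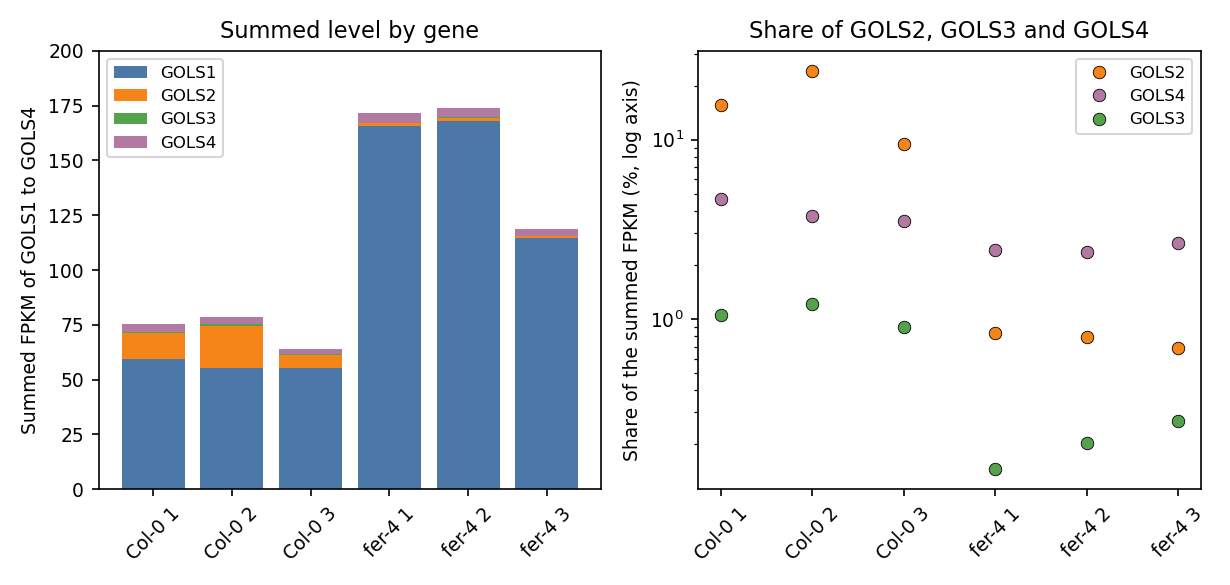
Left, summed FPKM of *GOLS1* to *GOLS4* in each library, stacked by gene. Right, the shares of *GOLS2*, *GOLS4* and *GOLS3* in that sum in percent (log axis), where *GOLS2* lies between 9.41% and 24.3% in Col-0 and between 0.687% and 0.829% in *fer-4*.

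The spread between replicates also differed among the genes. In Col-0 the coefficient of variation was 4.04% for *GOLS1*, 10.6% for *RS5*, 24.3% for *GOLS3* and 53.0% for *GOLS2*. *GOLS2*, *GOLS3* and *RS5* were highest in Col-0 replicate 2 and lowest in Col-0 replicate 3. For each gene, the 3 genes of at least 5 FPKM with the most similar 6 values were looked up, by the root mean square difference of log2 values centred on the mean of the 6 libraries, among 14511 genes. This is a description over 6 libraries that fall into 2 groups. Since these genes were picked for similar values, a shared order of the libraries follows in large part from the choice. Closest to *GOLS2* were AT3G17520 (difference 0.25), which encodes a late embryogenesis abundant protein, *RD29A* (AT5G52310, listed as *LTI140*, 0.36) and *RD29B* (AT5G52300, 0.37), genes of drought and cold responses. *RD29B* was at 33.4, 74.5 and 19.0 FPKM in the Col-0 replicates and at 5.03, 2.49 and 3.08 FPKM in the *fer-4* replicates. Closest to *GOLS3* were the sucrose-phosphate synthase gene *SPS2F* (AT5G11110, 0.07) and the abscisic acid bZIP factor genes *ABF3* (AT4G34000, 0.08) and *AREB1* (AT1G45249, 0.11). *ABF3* was at 68.7, 74.6 and 45.5 FPKM in the Col-0 replicates and at 24.8, 30.8 and 32.3 FPKM in the *fer-4* replicates.

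Closest to *GOLS1* were the cytochrome P450 gene *CYP71B37* (AT3G26330, 0.10), AT3G57600 (0.11), which the file describes as dehydration-responsive element-binding protein 2F, and AT5G44720 (0.11). AT3G57600 was at 2.82, 2.89 and 3.36 FPKM in the Col-0 replicates and at 8.64, 8.96 and 6.32 FPKM in the *fer-4* replicates. Closest to *RS5* were AT4G38370 (0.05), the nucleobase-ascorbate transporter gene AT5G49990 (0.05) and the subtilisin-like protease gene AT4G21650 (0.05). *GOLS4* lay closest to AT3G49420 (0.06), AT4G15450 (0.11) and AT3G52905 (0.12), and *RS4/STS* to the AP2-like factor gene *ANT* (AT4G37750, 0.13), *SUV2* (AT5G45610, 0.13) and AT3G54750 (0.14).

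**Figure D4:**
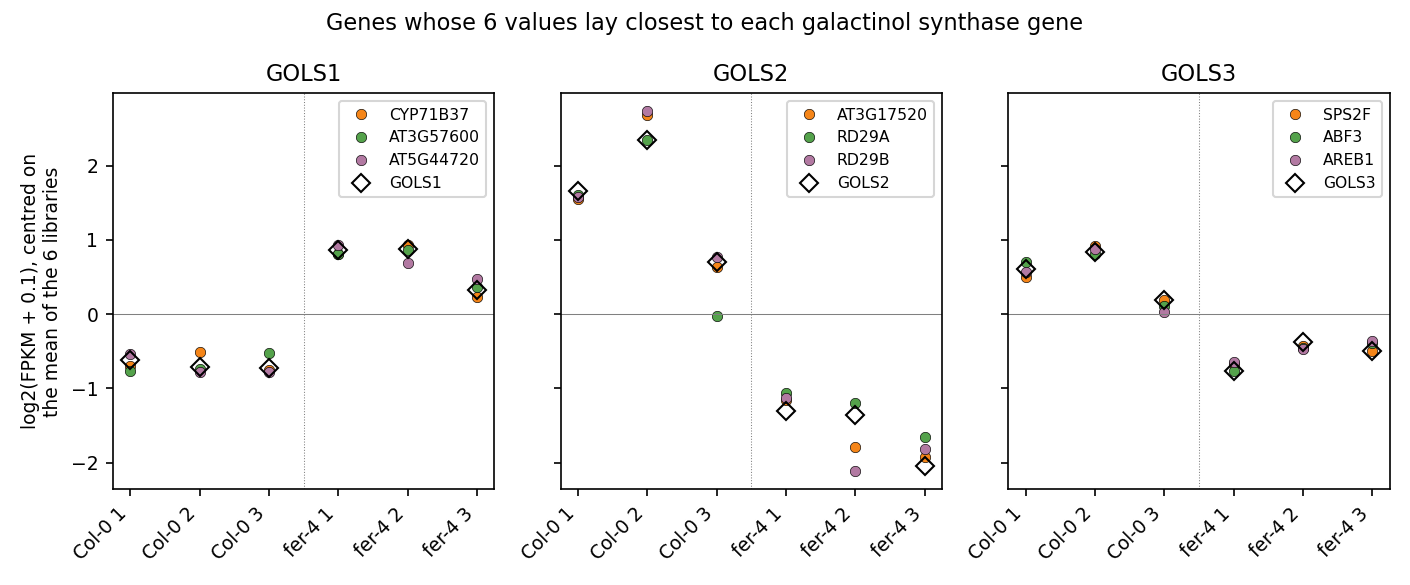
Values of log2(FPKM + 0.1), centred on the mean of the 6 libraries, for *GOLS1*, *GOLS2* and *GOLS3* (open diamonds) and the 3 genes closest to each (filled circles), with the libraries on the horizontal axis and a dotted line between Col-0 and *fer-4*. In the panel of *GOLS2* all 4 genes are highest in Col-0 replicate 2 and below 0 in the 3 *fer-4* libraries.

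In the RefSeq annotation of TAIR10.1, *GOLS1* lies on chromosome 2 from 19368798 to 19370478, *GOLS2* on chromosome 1 from 21207537 to 21209635 and *GOLS3* on chromosome 1 from 3019639 to 3021443. *GOLS4* lies on chromosome 1 from 22278975 to 22280593, *RS5* on chromosome 5 from 16161449 to 16165453 and *RS4/STS* on chromosome 4 from 853922 to 857401. The coding sequences of the galactinol synthase genes had 71.2% to 83.3% of their aligned bases in common. *GOLS2* and *GOLS3* were the closest pair, and their longest run of identical coding bases was 26 bases. *RS5* and *RS4/STS* shared 66.2% of aligned bases and a run of 19. *GOLS1* overlaps the end of *ARF1A1C* on the opposite strand by 43 bases, and *GOLS4* overlaps AT1G60460 on the opposite strand by 33 bases. *ARF1A1C* was between 259 and 307 FPKM and AT1G60460 between 0.788 and 2.06 FPKM over the 6 libraries. No source used here gives the strand setting of the counting, so reads in these overlaps cannot be told apart.

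Other genes of the pathway were tested in 1 fit over all 19839 genes whose mean reached 0.5 FPKM (limma, 2-sided, Benjamini-Hochberg adjustment over all of them). At an adjusted p under 0.05, 34.0% of these genes were called, 18.0% higher (3569 genes) and 16.0% lower (3170 genes) in *fer-4*, and after quantile normalization the counts were 3064 and 4203. Of 52 further genes of galactinol, raffinose, inositol, UDP-galactose and sucrose metabolism, 43 could be tested, and of these 11 rose, 9 fell and 23 did not pass. The share called among these genes was 46.5%, against 34.0% of all genes tested. Their median log2 difference was 0.01, against -0.01 over all genes tested.

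Genes that make inositol, the acceptor of galactinol synthase, fell or did not pass. Of 6 genes, 3 fell, and an unadjusted p under 0.05 gave the same count of 3 lower and 0 higher (limma). *MIPS1*, which encodes an inositol-phosphate synthase of the first step, was at 169, 164 and 148 FPKM in the Col-0 replicates and at 64.1, 67.8 and 59.7 FPKM in the *fer-4* replicates. The fall of *MIPS1* had a log2 difference of -1.33, with a standard error of 0.09 and an adjusted p of 2.3e-05 (limma). Its paralog *MIPS3* (-0.55) and the phosphatase gene *IMPL1* (-0.45) fell by less. *MIPS2*, the third synthase gene, had a mean of 49.5 ± 8.79 FPKM in Col-0 libraries and of 55.7 ± 5.75 FPKM in those of *fer-4* (SD, n = 3) and did not pass. Without Col-0 replicate 2 or 3, *MIPS3* did not pass (adjusted p = 0.0509 and 0.0508 from limma), and *IMPL1* did not pass without any 1 of the libraries other than *fer-4* replicate 1 (0.0598 to 0.0727).

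Inositol oxygenases open the inositol ring and so remove it. All 3 of the genes that could be tested rose, which were *MIOX4* (0.307 to 1.36 FPKM, log2 difference 1.83, and 0.83 with a pseudocount of 1), *MIOX2* (62.0 to 129.6 FPKM, 0.98) and *MIOX1* (1.75 to 3.38 FPKM, 0.89). *MIOX4* reached the minimum mean of 0.5 FPKM only through its *fer-4* libraries, so its place among the tested genes depended on its level there. *MIOX2*, the most abundant of them, was at 56.2, 72.1 and 57.7 FPKM in the Col-0 replicates and at 92.4, 98.2 and 198 FPKM in the *fer-4* replicates (adjusted p = 0.0244 from limma). It did not pass without Col-0 replicate 1 (0.0853 from limma) or Col-0 replicate 3 (0.0765), and without *fer-4* replicate 3 its log2 difference was 0.63. *MIOX5* was listed at 0 in all 6 libraries.

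For UDP-galactose, the galactose donor, 1 of 9 genes rose, 2 fell and 6 did not pass. The UDP-glucose epimerase gene *UGE3* rose (6.66 to 10.3 FPKM, 0.63), and its paralog *UGE4* fell (17.0 to 11.6 FPKM, -0.55). *UGP2*, which encodes a UDP-glucose pyrophosphorylase, fell from 65.5 ± 2.51 to 40.9 ± 1.67 FPKM (SD, n = 3, log2 difference -0.68, standard error 0.08, adjusted p = 3.9e-04 from limma). *UGE1*, *UGP1* and the galactokinase gene *GALK* were among those that did not pass.

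For sucrose, the acceptor of raffinose synthase, 3 of 4 sucrose-phosphate synthase genes fell. *SPS4F* was at 55.3, 59.0 and 63.1 FPKM in the Col-0 replicates and at 19.0, 31.4 and 28.1 FPKM in the *fer-4* replicates (log2 difference -1.20, standard error 0.17, adjusted p = 0.00124 from limma). *SPS2F* (-1.07) and *SPS1F* (-0.76) fell too, and *SPS3F* did not pass, with a mean of 0.574 ± 0.10 FPKM in Col-0 libraries and of 0.750 ± 0.0617 FPKM in those of *fer-4* (SD, n = 3). Of 4 sucrose-phosphatase genes, *SPP1* rose (5.05 to 10.5 FPKM, 1.04) and 3 did not pass. Of 11 tested genes listed under sucrose cleavage, 4 rose, 1 fell and 6 did not pass, and the sucrose synthase genes tested were all among the latter. Genes named as cell wall invertases were counted there by name, and whether each product cleaves sucrose was not measured. The cell wall invertase gene *CWINV1* was at 55.6, 54.6 and 56.1 FPKM in the Col-0 replicates and at 171, 183 and 339 FPKM in the *fer-4* replicates. The rise of *CWINV1* had a log2 difference of 1.99, with a standard error of 0.23 and an adjusted p of 4.4e-04 (limma). The vacuolar invertase gene *VI2* (68.1 to 186 FPKM, 1.45) and *CWINV6* (1.25 to 2.52 FPKM, 0.92) rose, and *CWINV5* fell (2.41 to 0.190 FPKM, -3.04, and -1.47 with a pseudocount of 1). *CWINV5* reached the minimum mean of 0.5 FPKM only through its Col-0 libraries. *CWINV6* did not pass without Col-0 replicate 1 (adjusted p = 0.0559 from limma), Col-0 replicate 3 (0.0577) or *fer-4* replicate 2 (0.0518).

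Alpha-galactosidases remove galactose from raffinose. The acid enzyme gene *AGAL1* rose from 8.42 ± 0.453 to 14.5 ± 0.463 FPKM (SD, n = 3, log2 difference 0.78, standard error 0.09, adjusted p = 4.1e-04 from limma), and *AGAL2* and *AGAL3* did not pass. Among genes named for raffinose synthase whose products are thought to act as alkaline alpha-galactosidases, *RS2* (AT3G57520) at 75.7 ± 20.3 and 61.9 ± 16.2 FPKM and *DIN10* (AT5G20250) at 128 ± 14.0 and 97.1 ± 34.9 FPKM in Col-0 and *fer-4* (SD, n = 3) did not pass. *RS2* and *DIN10* were thus at higher levels than *RS5* in every library. Of the other galactinol synthase genes, *GOLS7* was listed at 0 in the 3 Col-0 libraries and was at 0.579, 0.453 and 0.673 FPKM in the *fer-4* replicates, too low for the test. *GOLS5*, *GOLS6* and *GOLS10* were at most 0.221 FPKM in any library. AT3G28340, once named *GOLS8* and described in the file as the galacturonosyltransferase-like gene *GATL10*, rose from 2.96 ± 0.218 to 7.82 ± 1.34 FPKM (SD, n = 3, log2 difference 1.36, standard error 0.15, adjusted p = 2.7e-04 from limma).

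**Figure D5:**
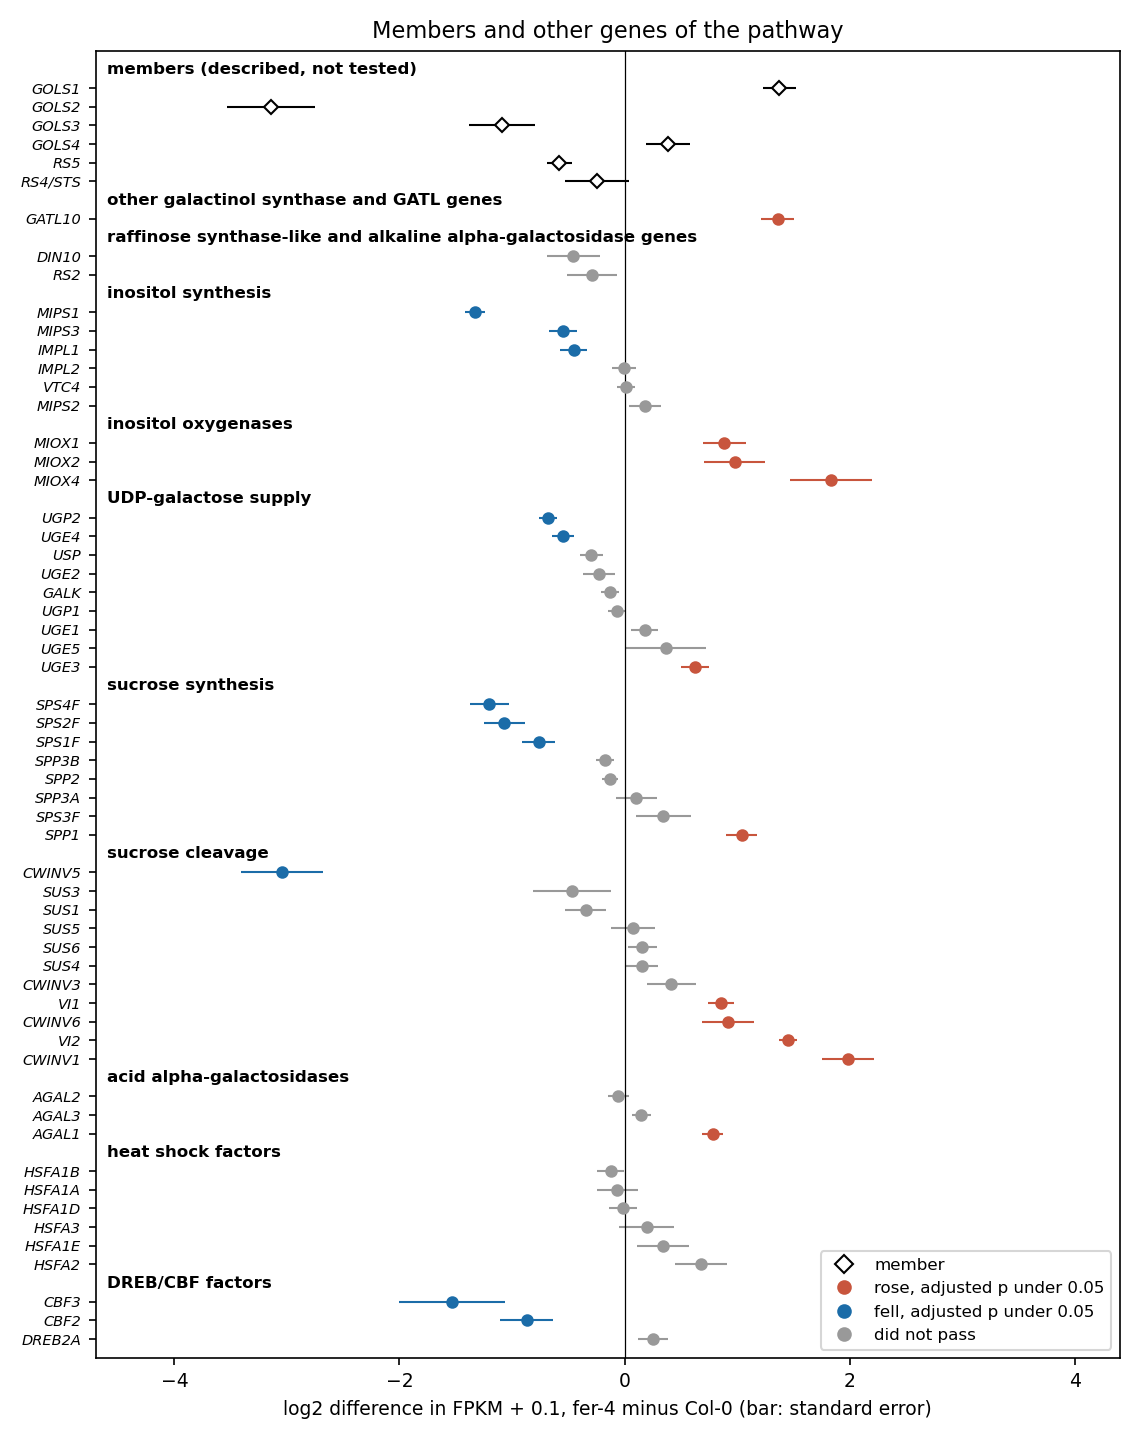
Difference between *fer-4* and Col-0 on the scale of log2(FPKM + 0.1), with the standard error as a bar, for the 6 genes described (open diamonds, no test) and for the other genes of the pathway and the regulators that could be tested, by role. Red points rose and blue points fell at an adjusted p under 0.05 (limma), and grey points did not pass.

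Of 9 tested genes of heat shock factors and of DREB or CBF factors, 0 rose, 2 fell and 7 did not pass (limma). The share called was 22.2%, against 34.0% of all genes tested. This list of regulators held no gene of a bZIP factor that binds the ABRE. *ABF3* (log2 difference -1.08) and *AREB1* (-0.99), lower in every *fer-4* library, were not on it. Both were picked for their similarity to *GOLS3*, so their direction is not a separate observation. Of the 6 heat shock factor genes, 0 passed in either direction (limma), and 1 was higher and 0 lower at an unadjusted p under 0.05. *HSFA2*, a factor gene induced by heat, was at 2.27, 3.99 and 2.05 FPKM in the Col-0 replicates and at 4.41, 4.35 and 4.19 FPKM in the *fer-4* replicates. The groups of *HSFA2* did not overlap (log2 difference 0.68, standard error 0.23, adjusted p = 0.0539 from limma), and it passed as higher without Col-0 replicate 2 (0.00486) and with the replicate number as a block (0.0401). *HSFA1A* (-0.06), *HSFA1B* (-0.12), *HSFA1D* (-0.02), *HSFA1E* (0.34) and *HSFA3* (0.20) had smaller differences. Among genes of DRE-binding factors, *DREB2A* of drought and heat responses did not pass, with a Col-0 mean of 10.5 ± 1.60 FPKM and a *fer-4* mean of 12.4 ± 1.22 FPKM (SD, n = 3). The cold response genes *CBF2* (2.40 to 1.3 FPKM, -0.87, adjusted p = 0.0227 from limma) and *CBF3* (1.43 to 0.404 FPKM, -1.53, 0.0366) fell. With a pseudocount of 1 the log2 difference was -0.58 for *CBF2* and -0.75 for *CBF3*. *CBF3* reached the minimum mean of 0.5 FPKM only through its Col-0 libraries. *CBF2* was at 2.19, 2.18 and 2.82 FPKM in Col-0 replicates 1, 2 and 3, and *CBF3* at 1.48, 2.16 and 0.636 FPKM, so that the order of the Col-0 libraries differed between them. *CBF2* did not pass without any 1 Col-0 library or *fer-4* replicate 1 or 2 (adjusted p = 0.0512 to 0.0901 from limma), and *CBF3* did not pass without Col-0 replicate 1 or 2 or *fer-4* replicate 1 or 3 (0.0512 to 0.130). *CBF1* was at most 0.138 FPKM in any library and was not tested. AT3G57600, described in the file as a DRE-binding factor gene and among the 3 genes closest to *GOLS1*, was not on this list. Its higher level in every *fer-4* library follows from its choice by similarity to *GOLS1*. The *GOLS1* window had no match to either form of the DRE.

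*FER* itself was between 56.5 and 64.6 FPKM in Col-0 libraries and between 0.0270 and 0.0905 FPKM in those of *fer-4*. Markers of shoot and root were above 0 in all libraries. Of 6 shoot markers, all genes of photosynthesis, 4 fell (*RBCS2B*, *RBCS3B*, *LHCA1* and *PSAF*) and 2 did not pass (*RBCS1A* and *LHCB1.3*). The summed level of the 6 was 49935 to 53918 FPKM in Col-0 libraries and 32249 to 38821 FPKM in those of *fer-4*. The paper reports genes of photosynthesis as down-regulated in *fer-4* under ML. Of 12 root markers, 8 fell, namely *NRT2.1*, *TIP2;3*, *COBL9*, *EXPA7*, *EXPA18*, *PRP3*, *LRX1* and *CASP1*. The 4 that did not pass were *MYB36* (log2 difference -0.21), *SHR* (0.14), *SCR* (-0.08) and *PHO1* (-0.30). The sums of the 12 were 233 to 248 FPKM in Col-0 libraries and 121 to 150.2 FPKM in those of *fer-4*. Whether the amount of shoot or root tissue differed was not tested. The share called was 66.7% for shoot markers and 66.7% for root markers, against 34.0% of all genes tested (16.0% lower). Galactinol synthases are also active in maturing seeds. Of 12 seed markers, 6 could be tested, 2 rose (*SESA1* and *SESA2*) and 4 did not pass. The sums of the 12 were 6.73 to 9.61 FPKM in Col-0 libraries and 15.4 to 23.95 FPKM in those of *fer-4*. The share called among the seed markers was 33.3%, against 34.0% of all genes tested. *SESA1* and *SESA2* reached the minimum mean of 0.5 FPKM only through their *fer-4* libraries. Their place among the tested genes thus depended on their level in *fer-4*. *SESA2* alone, at 4.38, 4.41 and 13.4 FPKM in the *fer-4* replicates, was at 0, 0 and 0.174 FPKM in the Col-0 replicates. Of the cruciferin genes of seed storage, which were too low for the test, *CRA1* was at 0, 0.0209 and 0.0237 FPKM in the Col-0 replicates and at 0.631, 0.565 and 0.184 FPKM in the *fer-4* replicates, so that its groups did not overlap. *EM1*, also too low for the test, went the other way without overlap. It was at 0.469, 0.451 and 0.227 FPKM in the Col-0 replicates and at 0, 0 and 0.151 FPKM in the *fer-4* replicates. *CRU2* and *CRU3* were at most 0.0502 FPKM in any library, and *SESA3* was listed at 0 in all 6. The part of these tissue and seed markers in the levels of the 6 genes was not tested.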

How the data were processed

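RNA-seq libraries were made from whole seedlings, 3 for each genotype, which the paper calls biological replicates. For each gene, the authors deposited FPKM in every library. STAR 2.5 and Cufflinks 2.2.1 are named in the submitters' processing notes, and reads were trimmed and mapped to TAIR10 according to the methods of the paper. The file itself states no unit, so FPKM was inferred from the use of Cufflinks and from the values. No counts were used, so depth is unknown; relative depth, read from the steps of values under 0.2 FPKM, was 0.952 to 1.08 for Col-0 libraries and 0.868 to 1.01 for those of *fer-4* (Col-0 replicate 1 as 1). A deposited comparison with fold changes, p-values and q-values was not used.

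Of 27372 genes, the 19839 whose mean reached 0.5 FPKM were fitted as log2(FPKM + 0.1) with limma 3.58.1 (R 4.3.3, intensity trend), after the procedure had been tested on simulated data. With 3 against 3 samples, an exact permutation test cannot give a 2-sided p below 0.1. The 6 genes, the gene lists, the rule for named genes (up to 4 called genes per role, every regulator, and the 3 closest patterns) and the tests were chosen with earlier results of these data known. A further gene of the pathway is not reported here. Alternatives were other pseudocounts, filters, scalings, a replicate block and leaving out each library. Sequences came from the RefSeq genome and annotation of TAIR10.1. Of 7465 genes with the same end in the file and in this annotation, 3883 had a start 1 less in the file and 22 an equal start. Python 3.11.15, pandas 2.3.3, numpy 2.4.6, Biopython 1.88 and matplotlib 3.10.9 did the rest.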

Additional observations from a re-analysis of the deposited data

How the results depend on the processing

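The log2 differences of the 6 genes kept their sign in every alternative run. They moved by more than the spread between replicates for *GOLS2* with a pseudocount of 1 (-2.48) and for *GOLS3* with a pseudocount of 1 (-0.44) and after quantile normalization (-1.56). Leaving out 1 library at a time gave 1.28 to 1.56 for *GOLS1*, -3.57 to -2.75 for *GOLS2*, -1.26 to -0.95 for *GOLS3*, 0.22 to 0.53 for *GOLS4*, -0.65 to -0.50 for *RS5* and -0.41 to -0.06 for *RS4/STS*. With a minimum mean of 2 FPKM, *GOLS3* and *RS4/STS* dropped out and gave no value.

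Of the pathway genes, 9 to 12 rose and 7 to 12 fell over all alternatives. Over all genes, 1932 to 3705 fell when 1 library was left out. Of the regulators, 0 to 1 rose and 0 to 1 fell without 1 library, and with a minimum mean of 2 FPKM 0 fell, and 1 tissue or seed marker rose. Without 1 library *HSFA1A* ranged from -0.17 to 0.10 and *HSFA1D* from -0.10 to 0.063, both above 0 without Col-0 replicate 3 (0.06 for each) or *fer-4* replicate 1 (0.10 and 0.063) and never past the threshold. The replicate numbers were entered as a replicate block, although deviations of samples with the same number correlated at only -0.04, 0.04 and -0.07. Those of samples with different numbers correlated at -0.04 to 0.07. The values gave no sign of pairing by number, but they cannot show whether samples were grown or prepared in numbered sets. With the block 3404 genes rose and 2986 fell, and 1 regulator rose, *HSFA2* (adjusted p = 0.0401 from limma). For *GOLS3* and *RS4/STS*, levels under 1 FPKM limit the precision.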
